A study of Homo sapiens with 12 samples.

Results

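The genes described here are 10 feedback regulators of the mitogen-activated protein kinase (MAPK) pathways. The rule picks them by symbol and uses no measured value, but the set was drawn up with earlier results of these data known. They are the dual-specificity phosphatase genes DUSP1, DUSP4, DUSP5, DUSP6, DUSP8 and DUSP10, the Sprouty genes SPRY2 and SPRY4, and the Sprouty-related genes SPRED1 and SPRED2. They make up 10 of the 26485 genes in the deposited table of RNA-seq counts, and all 10 passed the filter on low counts that left 14498 genes for testing. The table covers 12 libraries from PEO1 and COV362, established human ovarian carcinoma cell lines. PEO1 cells given 20 nM prexasertib, PEO1 cells given the DMSO vehicle, COV362 cells given 20 nM prexasertib and COV362 cells given DMSO gave 3 libraries each, lettered A, B and C. Prexasertib blocks the kinases CHK1 and CHK2, which hold the cell cycle when DNA is damaged. Both lines are labelled parental and grew in the same serum- and insulin-containing medium, and each stands for its tumour type as a single line. The labels give no treatment time, and nothing in them says that the letters are separate cultures, so p-values measure the spread between these samples, which may be technical.

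The MAPKs ERK, JNK and p38 are switched on by phosphorylation of a threonine and a tyrosine in their activation loop, and the dual-specificity phosphatases switch them off by removing both phosphates. DUSP1, DUSP8 and DUSP10 act mainly on the stress kinases JNK and p38, whereas DUSP5 and DUSP6 are selective for ERK and DUSP4 acts on ERK and JNK in the nucleus. Sprouty proteins restrain signalling from receptor tyrosine kinases to RAS and RAF, and SPRED proteins bring the RAS inhibitor neurofibromin to the membrane. Transcription of many of these genes is itself induced by MAPK signalling, so that their mRNA is often read as pathway output and as negative feedback at once.

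Library totals ranged from 9390790 to 18262805 counts. Levels are given as CPM, the count scaled to library size with trimmed mean of M-values factors. Libraries of 1 group differed in how relative level followed exon length (Spearman correlation across genes, which are not independent replicates). The correlation was −0.41 to −0.35 in the A libraries, which leaned toward short genes, 0.13 to 0.44 in the B libraries, which leaned toward long genes, and −0.05 to 0.32 in the C libraries. Of 7 epithelial ovarian carcinoma markers, PAX8 stood at 75.6 CPM or more in every library. EPCAM was low in COV362 (6.47 to 13.8 CPM) and MUC16 was low in PEO1 (2.70 to 7.80 CPM). WT1 was low in both lines (3.68 to 9.84 CPM). The 5 leukocyte markers summed to 31.3 to 60.2 CPM. Most of that was CD68, at 30.8 to 59.6 CPM, CD14 reached 5.16 CPM in the PEO1 DMSO libraries, and PTPRC and CD3E stood at 0.0549 and 0.235 CPM or less. In these bulk libraries, fewer cells of a type and less RNA per cell cannot be told apart.

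The stress-kinase phosphatase genes lie at chr5:172768090-172771200 (DUSP1), chr11:1554051-1571920 (DUSP8) and chr1:221701420-221742176 (DUSP10) in hg38, all on the minus strand. DUSP8 is also listed on other sequences of that build, and its counts are uncertain, as no source used here says how multi-mapping reads were counted. No exon of another gene in the table overlaps an exon of any of the 10 genes, which matters because the library kit does not mark strand. The upstream sequences of these 3 are shown because DUSP1 and DUSP10 rose most in PEO1, and because cAMP response elements, the sites of CREB and ATF factors, are a known feature of the DUSP1 promoter. Each is read 5′ to 3′ on the gene's strand from RefSeq (GRCh38.p14), and capitals mark TGACG on either strand (CGTCA on the other) and the full element TGACGTCA. The stretches are chr5:172771201-172771445, chr11:1572272-1572521 and chr1:221742177-221742339.
DUSP1: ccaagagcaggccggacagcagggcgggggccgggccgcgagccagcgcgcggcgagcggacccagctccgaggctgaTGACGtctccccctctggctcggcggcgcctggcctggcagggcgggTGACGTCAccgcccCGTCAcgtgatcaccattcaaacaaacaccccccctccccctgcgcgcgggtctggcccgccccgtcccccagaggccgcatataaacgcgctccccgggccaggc
DUSP8: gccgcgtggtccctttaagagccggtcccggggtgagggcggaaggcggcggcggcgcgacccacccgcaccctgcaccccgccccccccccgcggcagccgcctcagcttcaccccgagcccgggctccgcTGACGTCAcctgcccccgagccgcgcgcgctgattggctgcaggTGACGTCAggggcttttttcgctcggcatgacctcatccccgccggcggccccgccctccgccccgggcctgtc
DUSP10: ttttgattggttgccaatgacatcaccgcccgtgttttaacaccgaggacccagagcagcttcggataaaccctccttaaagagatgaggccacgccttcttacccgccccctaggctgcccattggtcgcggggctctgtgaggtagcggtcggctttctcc
The full element TGACGTCA stood once upstream of DUSP1, at −125 to −118 from the RefSeq start, and at 2 places upstream of DUSP8, at −118 to −111 and −74 to −67. No TGACG was found upstream of DUSP10. RefSeq windows of 250 bases upstream were matched for 8 of the 10 genes, 12 windows in all. A gene counts below if any of its windows has a match, while the human share is per window, so these are unlike units. TGACGTCA was in windows of 2 of the 8 genes and in 1.65% of 35116 human windows. TGACG, searched on both strands and part of the full element, was in windows of 4 of the 8 genes (DUSP1, DUSP8, SPRY4 and SPRY2) and in 21.2% of the human windows. The AP-1 site TGANTCA was in 0 of the 8 and in 6.57%, and the serum response CArG box was in 0 of the 8 and in 1.16%. The ETS core CCGGAA was in 1 of the 8 (SPRY2) and in 14.5%, and TATAAA was in 2 of the 8 (DUSP1 and SPRED2) and in 10.7%. A match describes these letters only.

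In PEO1 cells 7 of the 10 MAPK feedback genes rose with prexasertib and none fell. DUSP1 rose 4.96-fold, DUSP10 3.52-fold, DUSP6 2.62-fold and SPRY4 2.14-fold, and DUSP5, DUSP4 and SPRED2 rose by smaller steps. DUSP8, SPRY2 and SPRED1 did not pass the test. A gene was called where edgeR's quasi-likelihood (QL) test gave a p under 0.05 after adjustment over all tested genes by the method of Benjamini and Hochberg (BH). In PEO1 that rule called 29.3% of all tested genes, 14.7% higher and 14.6% lower. Of the 10 genes, 0 fell in edgeR, 0 were lower at an unadjusted p under 0.05, and DESeq2 and limma-voom each called 0 lower. The median log2 fold change of the 10 genes was 0.66, against 0.01 over all tested genes.

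**Figure D1:**
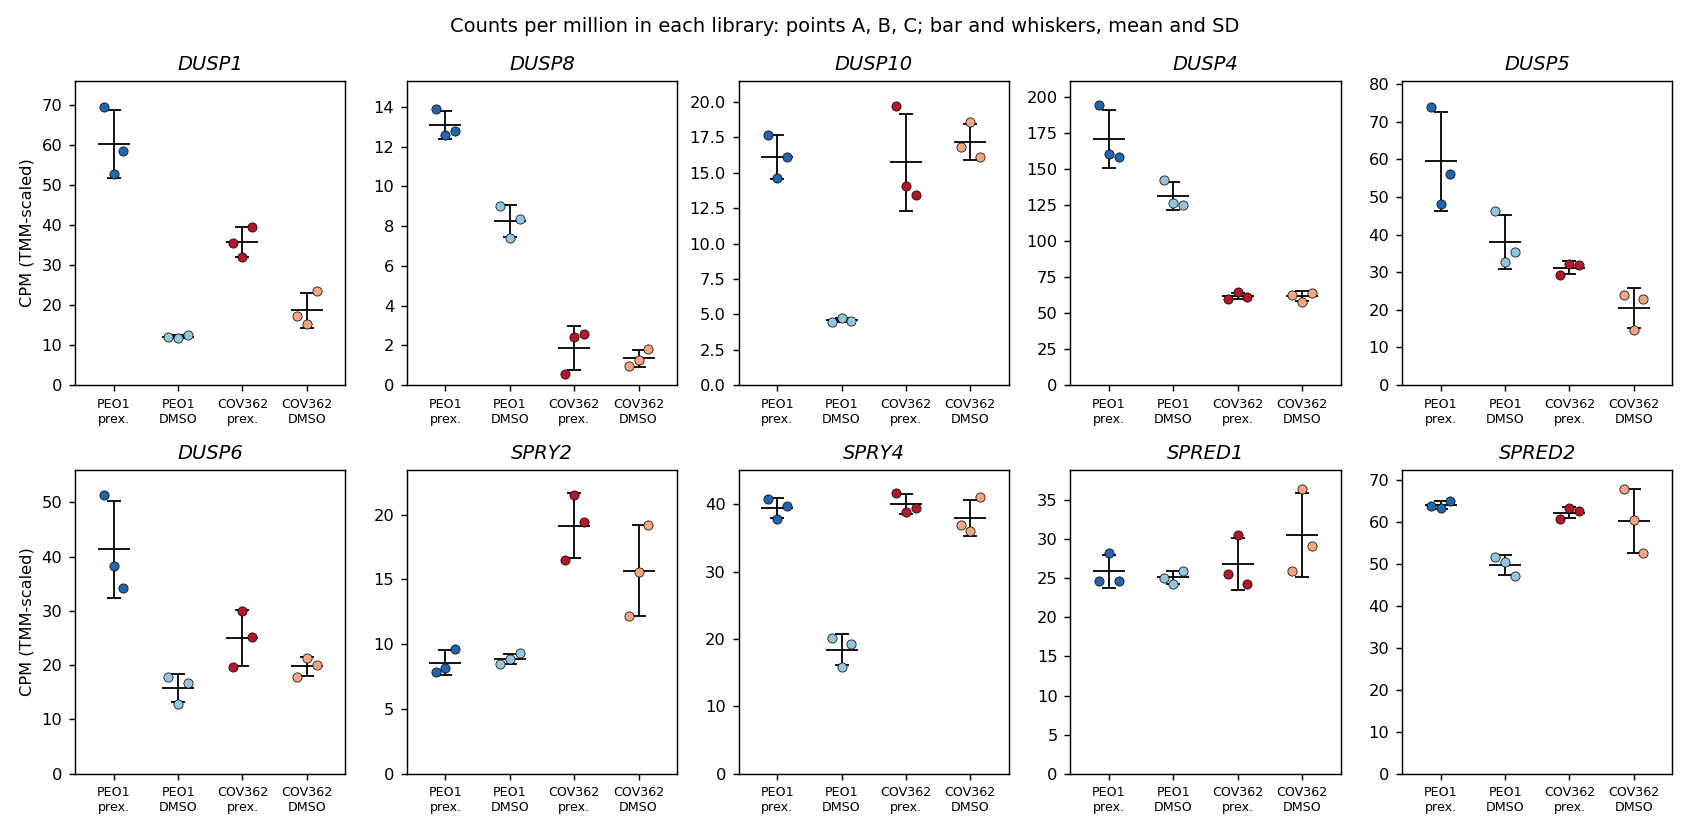
Level of each MAPK feedback gene (CPM, linear axes from 0, a scale for each panel) in the 12 libraries, with prexasertib left of DMSO in each line; points are libraries A, B and C from left to right, and bars and whiskers are mean and SD (n = 3). In PEO1, 8 of the 10 genes had all 3 prexasertib libraries above all 3 DMSO libraries, while in COV362 this held for DUSP1 and DUSP5.

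Among the stress-kinase phosphatases in PEO1, DUSP1, an immediate early gene for a nuclear phosphatase of p38 and JNK, was at 69.4, 52.6 and 58.4 CPM in prexasertib libraries A, B and C, against 11.9, 11.8 and 12.5 CPM in DMSO libraries A, B and C. The groups were far apart, and the DMSO libraries differed little among themselves. The means were 60.1 ± 8.52 CPM with prexasertib and 12.1 ± 0.378 CPM with DMSO (SD, n = 3 each), a log2 change of 2.31 ± 0.18 (SE; edgeR QL, BH-adjusted p = 2.69e-06). DUSP10, whose product acts on JNK and p38 in cytoplasm and nucleus, was at 17.7, 14.6 and 16.1 CPM with prexasertib, against 4.44, 4.72 and 4.56 CPM with DMSO. Every treated library held over 3 times the level of every DMSO library, and the log2 change was 1.81 ± 0.19 (edgeR QL, BH-adjusted p = 2.33e-05). DUSP8, a JNK and p38 phosphatase gene best known from brain and heart, was at 13.9, 12.6 and 12.8 CPM with prexasertib, against 9.01, 7.38 and 8.36 CPM with DMSO. Its groups did not overlap either, but the log2 difference of 0.67 ± 0.33 missed the threshold (edgeR QL, BH-adjusted p = 0.139). The fit takes the spread from all 12 libraries, and DUSP8 stood at 0.573 to 2.59 CPM in those of COV362. Without COV362 prexasertib A the DUSP8 difference passed (0.67, edgeR QL, BH-adjusted p = 0.0213), as it did in a fit of the PEO1 libraries alone (BH-adjusted p = 0.00791) and in limma-voom (BH-adjusted p = 0.0393), with adjusted p from 0.00791 to 0.638 over 22 alternatives.

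The 3 ERK phosphatase genes all rose in PEO1. DUSP6 (chr12:89347825-89352859, minus strand), which encodes a cytoplasmic phosphatase of ERK and is a common readout of ERK activity, was at 51.4, 38.3 and 34.3 CPM with prexasertib, against 17.8, 12.9 and 16.7 CPM with DMSO. The lowest treated library stood well above the highest DMSO library, and the log2 change was 1.39 ± 0.20 (edgeR QL, BH-adjusted p = 0.000279). DUSP5 (chr10:110497867-110511544, plus strand), for a nuclear phosphatase of ERK, was at 74.0, 48.2 and 56.1 CPM with prexasertib, against 46.2, 32.8 and 35.3 CPM with DMSO. Library A was the highest in both groups, and the treated B library was only just above DMSO library A. The log2 fold change of DUSP5 was 0.64 ± 0.21 (edgeR QL, BH-adjusted p = 0.0318). DUSP4 (chr8:29333062-29350750, minus strand), for a nuclear phosphatase of ERK and JNK, was at 194, 160 and 158 CPM with prexasertib, against 142, 126 and 125 CPM with DMSO. The groups did not overlap, giving a log2 change of 0.39 ± 0.12 (edgeR QL, BH-adjusted p = 0.0256).

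Of the Sprouty genes in PEO1, SPRY4 (chr5:142310427-142325055, minus strand), an inhibitor of receptor tyrosine kinase signalling to ERK, was at 40.8, 37.9 and 39.7 CPM with prexasertib, against 20.2, 15.8 and 19.3 CPM with DMSO. The groups were clearly apart, giving a log2 change of 1.10 ± 0.13 (edgeR QL, BH-adjusted p = 7.87e-05). SPRY2 (chr13:80335977-80340951, minus strand), its relative, was at 7.87, 8.13 and 9.66 CPM with prexasertib, against 8.49, 8.85 and 9.29 CPM with DMSO. These groups overlapped, and the log2 difference was −0.05, with a 95% confidence interval from −0.47 to 0.36. SPRED2 (chr2:65310851-65432522, minus strand) was at 63.7, 63.2 and 65.0 CPM with prexasertib, against 51.6, 50.4 and 47.0 CPM with DMSO. Its libraries were tight within each group and did not overlap, giving a log2 change of 0.36 ± 0.12 (edgeR QL, BH-adjusted p = 0.0344). SPRED1 (chr15:38252851-38357249, plus strand) was at 24.7, 28.3 and 24.7 CPM with prexasertib, against 25.1, 24.3 and 26 CPM with DMSO. The groups overlapped, with a difference of 0.04 and a 95% confidence interval from −0.29 to 0.38.

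Prexasertib and DMSO libraries of PEO1 did not overlap for 8 of the 10 genes, all higher with prexasertib, where 50.1% of all tested genes did not overlap, 25.0% of them higher. The calls of DUSP1, DUSP10, DUSP6 and SPRY4 were kept under all 22 alternatives, and their log2 fold changes without the A libraries were 2.18, 1.72, 1.29 and 1.14. The A library was the highest of the 3 for 7 of the 10 genes with prexasertib and for 6 of the 10 with DMSO. The smaller calls, of DUSP5, DUSP4 and SPRED2, were lost in some fits that left out 1 library. Leaving out 1 PEO1 library also lowered all genes called, from 4249 to between 3011 and 3361. DESeq2, limma-voom, the replicate block and a fit of the PEO1 libraries alone kept all 3 calls. DUSP4 lost its call without any 1 of the 6 PEO1 libraries (0.23 without prexasertib A, 0.38 without prexasertib B, 0.39 without prexasertib C and 0.39, 0.31 and 0.30 without DMSO A, B and C, with edgeR QL, BH-adjusted p from 0.0640 to 0.214), without the filter on low counts (BH-adjusted p = 0.127) and with a correction for exon length (BH-adjusted p = 0.123). SPRED2 lost it likewise (0.32, 0.32 and 0.30 without prexasertib A, B and C, and 0.34, 0.33 and 0.27 without DMSO A, B and C, edgeR QL, BH-adjusted p from 0.116 to 0.189), without COV362 prexasertib C (BH-adjusted p = 0.0531) and without the filter (BH-adjusted p = 0.176). DUSP5 lost it without prexasertib A (0.40), prexasertib C (0.63), DMSO B (0.49) or DMSO C (0.53), with edgeR QL, BH-adjusted p of 0.200, 0.0779, 0.161 and 0.136. The epithelial marker list moved in the same comparison: 5 of its 7 genes fell, where 14.6% of all tested genes fell. Its summed level was 3420 to 4010 CPM with prexasertib, against 6530 to 7650 CPM with DMSO. Of 3 fibroblast markers tested 1 fell, and that list summed to 60.4 to 77.4 CPM with prexasertib, against 220 to 293 CPM with DMSO, nearly all of it THY1, with DCN at 0.220 CPM or less. The part of either list in these results was not tested.

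In COV362 cells 1 of the 10 genes rose with prexasertib, DUSP1, by 1.91-fold, and none fell. DUSP5 had treated libraries above all DMSO libraries without passing the test, and the other 8 overlapped. The rule called 0.828% of all tested genes in this line, 0.607% higher and 0.221% lower. Lower calls among the 10 numbered 0 in edgeR, 0 before adjustment (p under 0.05), 0 in DESeq2 and 0 in limma-voom. The median log2 fold change of the 10 genes was 0.18, against −0.01 over all tested genes. DESeq2 called 280 genes higher and 219 lower in this line, against 88 and 32 with edgeR, and DUSP1 was the 1 member called by either.

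DUSP1 was at 35.5, 32.0 and 39.4 CPM in prexasertib libraries A, B and C of COV362, against 17.3, 15.2 and 23.5 CPM in DMSO libraries. The groups did not overlap, giving a log2 change of 0.93 ± 0.18 (edgeR QL, BH-adjusted p = 0.0247). DUSP5 was at 29.2, 32.3 and 32.0 CPM with prexasertib, against 24.0, 14.5 and 23.0 CPM with DMSO. These groups did not overlap, and DMSO library B stood lowest by a wide gap. The DUSP5 difference of 0.61 ± 0.21 missed the threshold (edgeR QL, BH-adjusted p = 0.230), and it passed with the replicate letter as a block (0.65, BH-adjusted p = 0.00707), where adjusted p ran from 0.00707 to 1 over 22 alternatives. In COV362 same-letter deviations correlated for A and B (0.41 and 0.42) and less for C (0.13). With the block 2 of the 10 genes were called, DUSP1 and DUSP5, among 1399 of all genes (609 higher and 790 lower). Prexasertib and DMSO libraries did not overlap for 2 of the 10 genes, both higher with prexasertib, against 14.5% of all tested genes (6.82% higher and 7.63% lower).

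The other 8 genes did not pass in COV362. DUSP10 was at 19.7, 14.1 and 13.4 CPM with prexasertib, against 16.8, 18.6 and 16.1 CPM with DMSO. Its treated libraries lay on both sides of the DMSO libraries, with a log2 difference of −0.14 and a 95% confidence interval from −0.52 to 0.25. DUSP6 was at 19.7, 30.0 and 25.1 CPM with prexasertib, against 17.8, 21.4 and 20.1 CPM with DMSO, and SPRY4 at 41.7, 38.9 and 39.4 CPM, against 36.9, 36.1 and 41.1 CPM. Both pairs of groups overlapped, with differences of 0.34 (95% confidence interval −0.09 to 0.77) for DUSP6 and 0.07 (−0.21 to 0.36) for SPRY4. SPRY2 differed by 0.28, DUSP8 by 0.46, SPRED2 by 0.05, DUSP4 by 0.01 and SPRED1 by −0.19. DUSP8 was hardly detected, at 0.573 to 2.59 CPM with prexasertib and 0.968 to 1.82 CPM with DMSO. The DUSP1 call was lost without prexasertib C (0.85, edgeR QL, BH-adjusted p = 0.126), without DMSO A (0.88, 0.0588) or DMSO B (0.79, 0.128), and, through the shared spread, without PEO1 prexasertib C (0.94, 0.0536) or PEO1 DMSO B (0.94, 0.0523). It was also lost in a fit of the 6 COV362 libraries alone (0.94, BH-adjusted p = 0.252), with log2 fold changes from 0.79 to 1.14 over 22 alternatives. The summed level of the endothelial markers was 46.5 to 51.0 CPM with prexasertib, against 73.8 to 88.2 CPM with DMSO, nearly all of it CDH5, with PECAM1 at 2.42 CPM or less. The leukocyte markers summed to 50.1 to 60.2 CPM with prexasertib, against 31.3 to 42.3 CPM with DMSO, nearly all of it CD68 (53.3 ± 5.53 CPM with prexasertib and 36.7 ± 5.61 CPM with DMSO, SD, n = 3 each), with CD3E at 0 in both groups. The part of either list was not tested.

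The change with prexasertib was larger in PEO1 than in COV362 for 4 of the 10 genes, DUSP10, DUSP1, DUSP6 and SPRY4, and smaller for none of them. This was tested as the difference of the log2 fold changes, PEO1 minus COV362, which called 6.1% of all tested genes, 3.14% higher and 2.97% lower. A smaller change in PEO1 was called for 0 of the 10 by edgeR, for 0 before adjustment (p under 0.05), and for 0 by DESeq2 and by limma-voom. The median difference of the 10 genes was 0.35, against 0.03 over all tested genes.

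**Figure D2:**
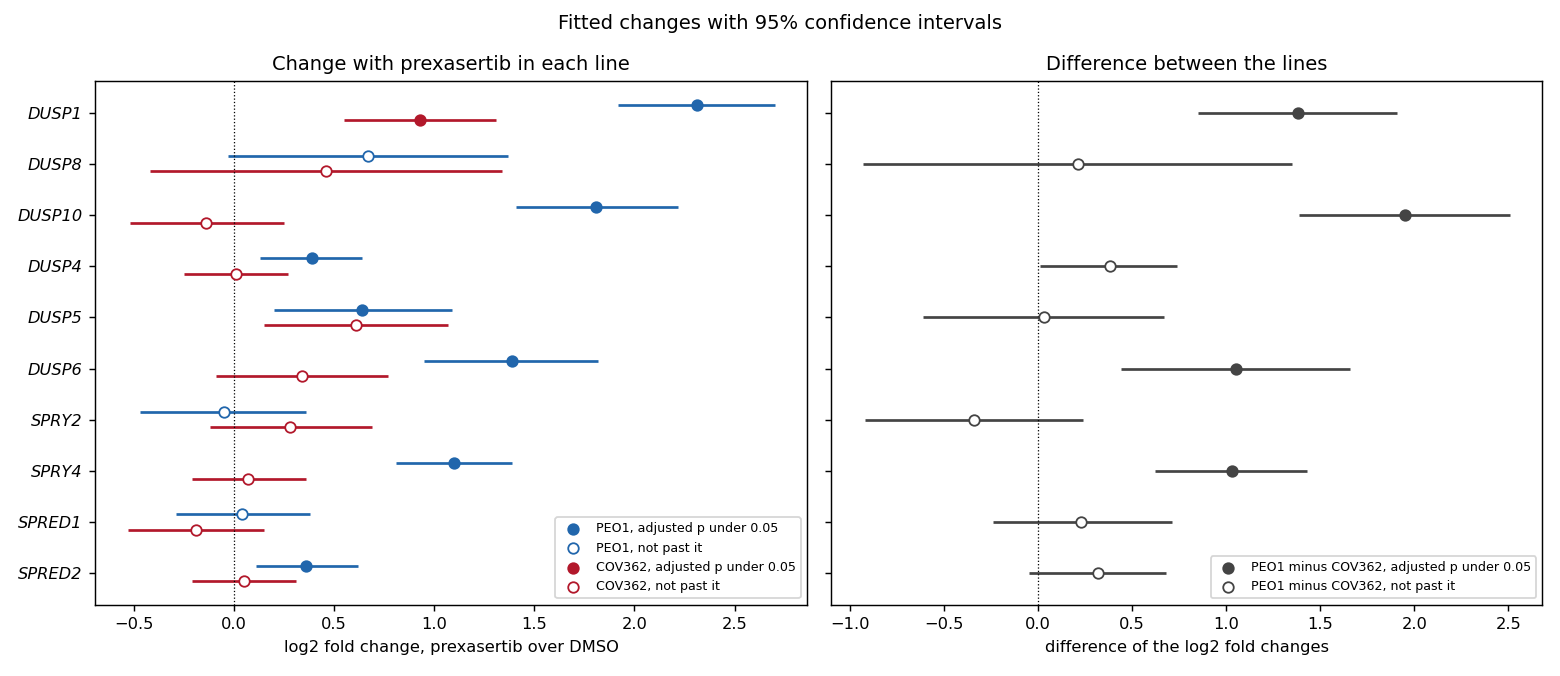
Left, fitted log2 fold change (prexasertib over DMSO) of each MAPK feedback gene in PEO1 (blue, above) and COV362 (red, below); right, the difference of these changes, PEO1 minus COV362. Lines are 95% confidence intervals from the fit over 12 libraries and filled points passed an adjusted p of 0.05; DUSP10, at 1.95, and DUSP1, at 1.38, lie farthest to the right in the right panel.

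DUSP10 had the largest difference of the 10. Its log2 fold change was 1.81 in PEO1 and −0.14 in COV362, a difference of 1.95 ± 0.26 (edgeR QL, BH-adjusted p = 0.00168). DUSP1 rose in both lines and differed by 1.38 ± 0.25 (BH-adjusted p = 0.00819, edgeR QL). SPRY4 differed by 1.03 ± 0.19 (BH-adjusted p = 0.00909, edgeR QL) and DUSP6 by 1.05 ± 0.28 (BH-adjusted p = 0.0445, edgeR QL). For the others the difference did not pass, and the intervals are wide: −0.93 to 1.35 for DUSP8, −0.61 to 0.67 for DUSP5, −0.92 to 0.24 for SPRY2, −0.24 to 0.71 for SPRED1, −0.05 to 0.68 for SPRED2 and 0.01 to 0.74 for DUSP4. For DUSP5 the change was 0.64 in PEO1 and 0.61 in COV362, though the first alone passed its threshold. The calls of DUSP10, DUSP1 and SPRY4 were kept without any 1 library. That of DUSP6 was lost without any 1 of 10 libraries, the exceptions being COV362 prexasertib B and COV362 DMSO A. For PEO1 the values without prexasertib A, B and C were 0.80, 1.05 and 1.11 and without DMSO A, B and C 1.08, 0.87 and 1.03. For COV362 they were 0.91 without prexasertib A, 1.05 without prexasertib C, 0.99 without DMSO B and 1.04 without DMSO C (edgeR QL, BH-adjusted p from 0.0572 to 0.123 over the 10, and from 0.00126 to 0.324 over 21 alternatives).

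Without the drug, the lines held different levels of 7 of the 10 genes. DUSP8, DUSP4 and DUSP5 were higher in PEO1 than in COV362, and DUSP10, SPRY4, SPRY2 and DUSP1 were lower in PEO1. The rule called 57.7% of all tested genes between the DMSO libraries of the lines, 29.1% higher and 28.6% lower in PEO1, so a share of 7 in 10 is near the background. The groups did not overlap for 8 of the 10 genes, 3 higher and 5 lower in PEO1, where 63.5% of all tested genes did not overlap (32.4% higher and 31.1% lower). The median log2 ratio of the 10 genes was −0.30, against −0.01 over all tested genes. This comparison uses the DMSO libraries from which the drug changes were also computed, so the results are not independent.

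With DMSO, DUSP8 averaged 8.25 ± 0.817 CPM in PEO1 and 1.35 ± 0.436 CPM in COV362, a log2 difference of 2.56 ± 0.38 (edgeR QL, BH-adjusted p = 6.17e-05). DUSP4 averaged 131 ± 9.61 CPM in PEO1 and 61.4 ± 3.48 CPM in COV362, and DUSP5 38.1 ± 7.11 CPM in PEO1 and 20.5 ± 5.2 CPM in COV362 (SD, n = 3 each). Their log2 differences were 1.09 ± 0.12 and 0.90 ± 0.21 (edgeR QL, BH-adjusted p = 3.79e-06 and 0.00237). In the other direction, DUSP10 averaged 4.58 ± 0.143 CPM in PEO1 and 17.2 ± 1.30 CPM in COV362, 3.75-fold lower in PEO1 (−1.91 ± 0.19, edgeR QL, BH-adjusted p = 1.38e-06). SPRY4 differed by −1.05 ± 0.13, SPRY2 by −0.82 ± 0.19 and DUSP1 by −0.63 ± 0.18 (edgeR QL, BH-adjusted p = 1.58e-05, 0.00225 and 0.00815). DUSP6 differed by −0.33 and SPRED1 and SPRED2 by −0.28 each, and none of the 3 passed. With the replicate letter as a block and the exon length correction together all 10 genes were called, DUSP6 at −0.39 and SPRED1 at −0.30 (edgeR QL, BH-adjusted p = 0.0465 and 0.0255, over alternatives from 0.0344 to 0.910 for DUSP6 and from 0.0255 to 1 for SPRED1). DUSP6 also passed without the A libraries (−0.47, edgeR QL, BH-adjusted p = 0.0344) and SPRED1 with upper-quartile factors (−0.38, edgeR QL, BH-adjusted p = 0.0437). SPRED2 passed with the replicate letter as a block (−0.27, edgeR QL, BH-adjusted p = 0.0217) and without COV362 DMSO C (−0.37, BH-adjusted p = 0.0308), over alternatives with adjusted p from 0.00555 to 1. Without COV362 DMSO C the DUSP1 call was lost (−0.42, edgeR QL, BH-adjusted p = 0.0605).

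**Figure D3:**
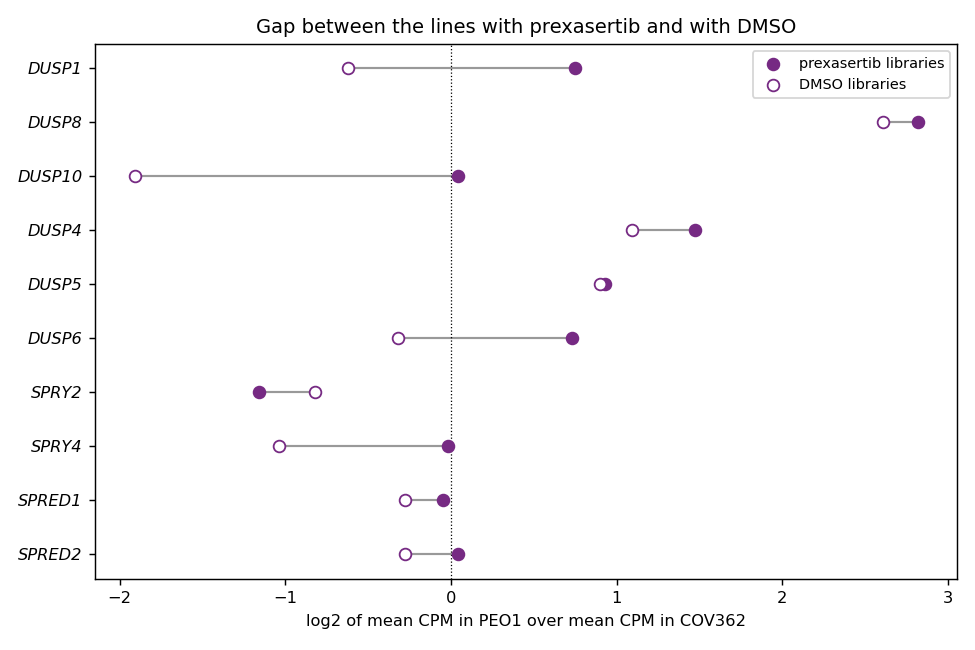
Log2 ratio of the mean CPM in PEO1 to that in COV362 for each MAPK feedback gene, in the prexasertib libraries (filled) and in the DMSO libraries (open); the dotted line is equal level and no error is drawn. DUSP10 lies at 0.04 with prexasertib and −1.91 with DMSO, and SPRY4 at −0.02 with prexasertib and −1.04 with DMSO.

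DUSP10 and SPRY4, the members lowest in PEO1 relative to COV362 among the DMSO libraries, overlapped between the lines among the prexasertib libraries. DUSP10 averaged 16.1 ± 1.56 CPM in PEO1 and 15.7 ± 3.45 CPM in COV362 with prexasertib, and SPRY4 39.5 ± 1.49 CPM in PEO1 and 40.0 ± 1.5 CPM in COV362 (SD, n = 3 each). SPRED2 had the same pattern, at 1.03 times COV362 with prexasertib and 0.825 times with DMSO. DUSP1 changed places, with PEO1 at 1.69 times COV362 under prexasertib and at 0.649 times COV362 under DMSO, and the groups did not overlap in either. SPRY2 stayed lower in PEO1 in both conditions, at 0.447 times COV362 with prexasertib and 0.567 times with DMSO. These ratios are a description of means, without a test of their own.

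Levels can be compared between genes per kilobase of exon, which leaves out DUSP8, as its listed length counts several copies. On that scale the PEO1 prexasertib libraries held most DUSP1 (29.7 ± 4.21 CPM per kb), followed by DUSP5 (23.5 ± 5.22) and DUSP4 (23.3 ± 2.79). The PEO1 DMSO libraries held most DUSP4 (17.8 ± 1.31 CPM per kb) and DUSP5 (15.1 ± 2.81), with DUSP1 at 5.98 ± 0.187 CPM per kb. In COV362, DUSP1 led with prexasertib (17.6 ± 1.83 CPM per kb) and SPRED2 led with DMSO (12.9 ± 1.64 CPM per kb). DUSP10 was the lowest of the 9 in the PEO1 DMSO libraries, at 1.67 ± 0.0521 CPM per kb. Over the 4 groups, the order for DUSP1 was PEO1 prexasertib, COV362 prexasertib, COV362 DMSO and PEO1 DMSO, and no neighbours in that order overlapped. For SPRED1 all neighbours overlapped.

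Other genes of the pathways were read from lists by role. In PEO1 the AP-1 and stress-kinase output genes moved most, with 4 of 6 higher and 0 lower in edgeR (JUNB was lower before adjustment, at p under 0.05, and was the 1 gene called lower by DESeq2 and by limma-voom). ATF3, a stress-induced transcription factor, averaged 224 CPM with prexasertib and 13.5 CPM with DMSO (a log2 change of 4.05 ± 0.17; edgeR QL, BH-adjusted p = 5.81e-09). FOS, a subunit of AP-1, averaged 38 CPM with prexasertib and 2.73 CPM with DMSO (3.79 ± 0.24, edgeR QL, BH-adjusted p = 3.83e-07). FOSB (3.65) and JUN (1.22) rose as well, while JUNB (−0.73) and JUND (0.64) did not pass. The median of this list was 2.43, against 0.01 over all tested genes.

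**Figure D4:**
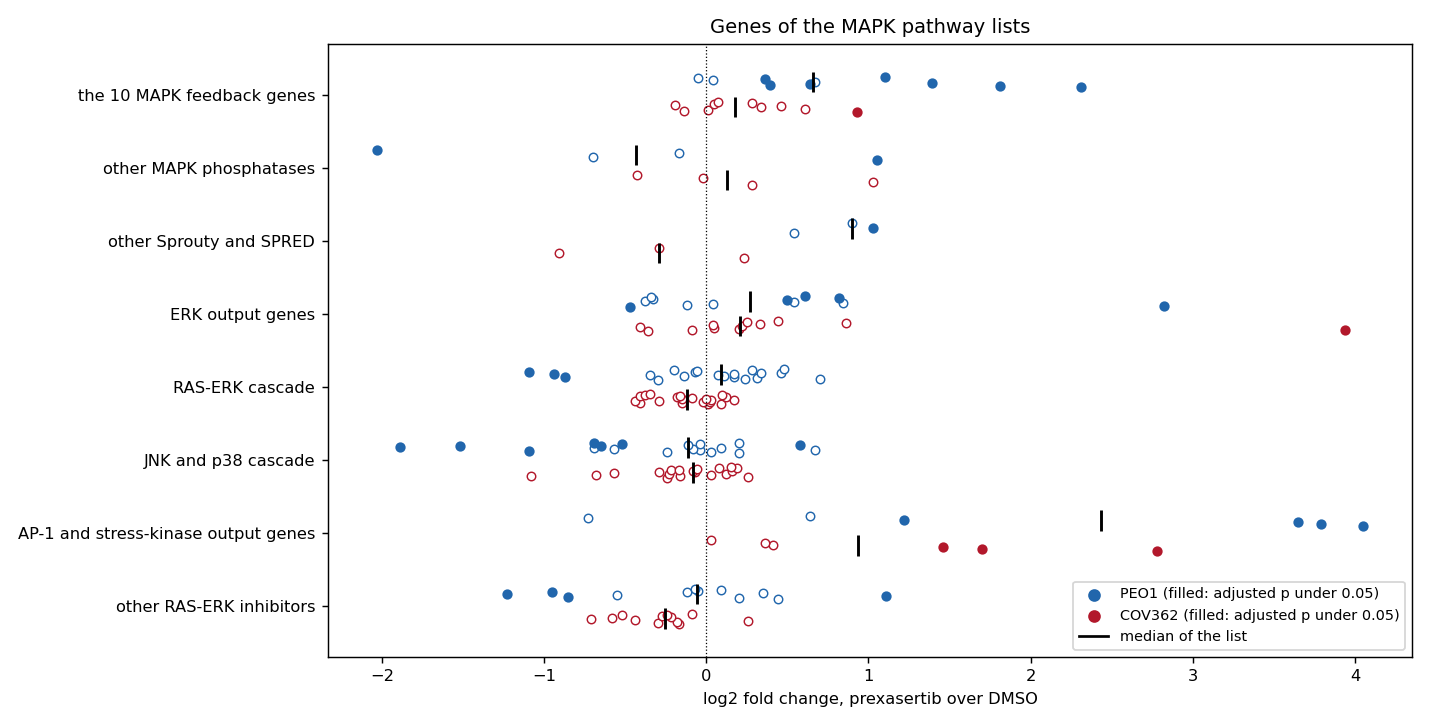
Log2 fold change (prexasertib over DMSO) of every tested gene in the MAPK feedback set and in 7 pathway lists, PEO1 (blue) above COV362 (red) in each row; filled points passed an adjusted p of 0.05 and vertical ticks are list medians. The AP-1 and stress-kinase output genes reach 4.05 in PEO1 and 2.78 in COV362, and the RAS-ERK cascade genes have medians of 0.09 in PEO1 and −0.12 in COV362.

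Of the 12 ERK output genes in PEO1, 4 rose and 1 fell, where 14.7% of all tested genes rose and 14.6% fell. EGR1, an immediate early transcription factor, rose by 2.82 ± 0.28 (edgeR QL, BH-adjusted p = 1.48e-05) and IER3, an immediate early survival gene, by 0.82 ± 0.26 (BH-adjusted p = 0.0305, edgeR QL). PHLDA1 and the ETS factor gene ETV5 rose by 0.61 and 0.50, and CCND1, the cyclin D1 gene, fell by 0.47. Among the 4 other MAPK phosphatase genes DUSP16, a JNK phosphatase, rose by 1.05 ± 0.18 (BH-adjusted p = 0.000895, edgeR QL), the low-level DUSP9 fell by 2.03, and DUSP2 (−0.70) and DUSP7 (−0.17) did not pass. Of the 3 other Sprouty and SPRED genes SPRY1 rose (1.03 ± 0.34, edgeR QL, BH-adjusted p = 0.0327), from counts near 1 CPM. SPRY3 (0.90) and SPRED3 (0.54) did not pass, and limma-voom called 0 of the 3. With the exon length correction the IER3 call was lost (0.77, edgeR QL, BH-adjusted p = 0.0848). Some of these calls were also lost when 1 library was left out. SPRY1 lost its call without prexasertib C (0.70) or DMSO A, B or C (0.78, 1.06 and 1.13), IER3 without prexasertib A or C (0.54 and 0.78) or DMSO B or C (0.64 and 0.77), and ETV5 without DMSO B or C (0.38 and 0.43).

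The cascade genes are set against the 29.3% of all tested genes called in PEO1, 14.7% higher and 14.6% lower. Of 20 RAS-ERK cascade genes 0 rose and 3 fell in edgeR (2 were higher and 4 lower before adjustment, at p under 0.05, and DESeq2 and limma-voom each called 1 higher and 3 lower). The 3 were RPS6KA1, the RSK1 kinase downstream of ERK (−1.09 ± 0.18, BH-adjusted p = 0.00078, edgeR QL), MAPK3, which encodes ERK1 (−0.94 ± 0.19, BH-adjusted p = 0.00255, edgeR QL), and HRAS (−0.87), whose call was lost without PEO1 prexasertib B (−0.73), PEO1 DMSO A (−0.77), COV362 prexasertib C (−0.87) or COV362 DMSO C (−0.87). Of 19 JNK and p38 cascade genes tested 1 rose, MAPK8 for JNK1 (0.58), and 6 fell. The largest falls were in the p38 genes MAPK11 (−1.89 ± 0.42, edgeR QL, BH-adjusted p = 0.00426) and MAPK12 (−1.52 ± 0.29, edgeR QL, BH-adjusted p = 0.00163). Of 12 other RAS-ERK inhibitors 1 rose, ERRFI1, an inhibitor of the EGF receptor (1.11 ± 0.14, edgeR QL, BH-adjusted p = 8.84e-05). LRIG1, which lowers receptor levels and shares 131 exon bases with SLC25A26 on the other strand, fell by 1.23, PEBP1 by 0.95 and DAB2IP by 0.85.

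In COV362 the same lists gave 3 of 6 AP-1 and stress-kinase output genes and 1 of 12 ERK output genes, all higher. The rule called 0.828% of all tested genes in this line, 0.607% higher and 0.221% lower. EGR1 rose by 3.94 ± 0.32, ATF3 by 2.78 ± 0.16 and FOS by 1.70 ± 0.27 (edgeR QL, BH-adjusted p = 6.16e-05, 1.6e-06 and 0.0102), and FOSB by 1.46. FOS lost its call without COV362 DMSO B (1.68, edgeR QL, BH-adjusted p = 0.0599, over alternatives from 1.55e-05 to 0.180), and FOSB lost it without any 1 library other than PEO1 DMSO B (1.35 to 1.56). Limma-voom called 1 of the 6 AP-1 genes. Lower calls in both lists numbered 0 in edgeR and 0 in limma-voom, with 1 ERK output gene lower in DESeq2 and 1 before adjustment (p under 0.05). No gene of the other 5 lists was called by edgeR, which is near that low share of all genes. Before adjustment, at p under 0.05, these lists had 0 genes higher, with 0 of 4 other MAPK phosphatases, 1 of 3 other Sprouty and SPRED genes, 1 of 20 RAS-ERK cascade genes, 1 of 19 JNK and p38 cascade genes and 3 of 12 other inhibitors lower. Limma-voom called none of them, and DESeq2 called 1 Sprouty or SPRED gene and 1 JNK or p38 cascade gene lower. The replicate block called 1399 of the 14498 tested genes, 609 higher and 790 lower. With it the list calls were 4 higher and 0 lower for AP-1, 4 and 1 for ERK output, 0 and 0 for other MAPK phosphatases, 0 and 1 for other Sprouty and SPRED, 0 and 1 for RAS-ERK, 0 and 2 for JNK and p38, and 0 and 2 for other inhibitors.

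Between the lines, the changes of FOSB (2.19 ± 0.44), FOS (2.09 ± 0.37) and ATF3 (1.27 ± 0.22) were larger in PEO1 (edgeR QL, BH-adjusted p = 0.0146, 0.00738 and 0.00681). The signed difference was also positive for SPRY1 (1.94 ± 0.41), ERRFI1 (0.85 ± 0.19) and MAPK8 (0.75 ± 0.17). Their BH-adjusted p in edgeR QL was 0.0183, 0.0241 and 0.0256. It was negative for MAPKAPK3, a kinase activated by p38 (−0.77 ± 0.19, edgeR QL, BH-adjusted p = 0.0322). SPRY1 averaged 9.45 CPM with prexasertib and 17.8 CPM with DMSO in COV362, and 1.42 and 0.681 CPM in PEO1. MAPKAPK3 averaged 65.1 CPM with prexasertib and 61.7 CPM with DMSO in COV362, and 81.6 and 132 CPM in PEO1. Of all tested genes 6.1% differed by this rule, 3.14% higher and 2.97% lower, so a count of 0 in a short list is near that share. Of 12 ERK output genes 0 differed in edgeR, with 1 higher and 1 lower before adjustment (p under 0.05), 1 lower in DESeq2 and 0 in limma-voom. Of 20 RAS-ERK cascade genes 0 differed in edgeR (3 higher and 3 lower before adjustment, 1 lower in DESeq2, 0 in limma-voom), and of 4 other MAPK phosphatases 0 (1 and 1 before adjustment, 0 in DESeq2 and in limma-voom). The replicate block called 4219 of all genes, 2192 higher and 2027 lower. With it these 3 lists gave 1 higher and 4 lower for ERK output, 5 and 3 for RAS-ERK, and 1 and 0 for other MAPK phosphatases. The SPRY1 call was lost without PEO1 prexasertib C (1.61) or PEO1 DMSO A (1.68). That of MAPK8 was lost without any 1 PEO1 library, COV362 prexasertib C or COV362 DMSO C (0.65 to 0.75). That of ERRFI1 was lost without any 1 PEO1 library but DMSO C, and without COV362 prexasertib C, DMSO B or DMSO C (0.67 to 0.88). That of MAPKAPK3 was lost without PEO1 prexasertib B, PEO1 DMSO A or C, COV362 prexasertib A or C, or COV362 DMSO B or C (−0.84 to −0.68). Under DMSO, SPRY1 was 0.681 CPM in PEO1 and 17.8 CPM in COV362 (−4.67 ± 0.31, edgeR QL, BH-adjusted p = 2.26e-08), and MAPK13, for p38 delta, was 84.2 CPM in PEO1 and 2.36 CPM in COV362 (5.23 ± 0.23, edgeR QL, BH-adjusted p = 4.16e-10). NRAS (1.68), MAP3K5 (3.14), JUNB (2.45), DUSP2 (3.71), EGR1 (2.30), RASA1 (1.76), IL17RD (1.62), GAB1 (1.36) and FOS (1.09) were also higher in PEO1, and ETV1 (−2.92), SPRED3 (−1.75) and DUSP9 (−1.28) were lower in PEO1. The DUSP9 call was lost without any 1 PEO1 DMSO library, COV362 DMSO A or COV362 DMSO C (−1.36 to −0.94).

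The genes whose profiles over the 12 libraries were most like those of the members were found by the root mean square difference of centred log2 CPM among 10680 genes at 5 CPM or more. For DUSP1 they were ULBP2 (0.16), NR1D1 (0.19) and CIDECP (0.28), and for DUSP10 CHCHD7 (0.26), UPF3B (0.30) and HES1 (0.30). For DUSP6 they were TES (0.18), ZNF330 (0.20) and ZNF44 (0.20), and for SPRY4 ZNF655 (0.15), DAGLB (0.16) and IP6K2 (0.18). No member was among the 3 nearest genes of another member. The nearest genes lay at 0.06 for SPRED1 (CDK5RAP2), 0.09 for SPRED2 (SAFB), 0.09 for DUSP4 (ARL6IP1) and 0.16 for SPRY2 (STIP1). For DUSP5 the nearest was FAM118A (0.18) and for DUSP8 CHMP1B (0.32).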

How the data were processed

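Per the labels' protocols, column-purified total RNA went into the unstranded TruSeq RNA v2 kit. Per the submitters' processing notes, STAR, Subread and featureCounts 1.4.6 were used with hg38; their settings are not given in the sources used here. The authors deposited raw counts per gene, unnormalized. From them, genes were filtered with filterByExpr (minimum count 10, minimum total 15). The 4 groups were fitted together over the 12 libraries (8 residual degrees of freedom) in edgeR 4.0.16 under R 4.3.3, and the test was checked on simulated data. The simulated counts held no letter effect and no exon length trend, so that check does not cover either. Alternatives were DESeq2 1.42.0, limma-voom 3.58.1, other factors, no filter, the replicate letter as a block, an exon length correction, a 1.5-fold minimum, the compared groups alone, and omitted libraries. The 10 members and all lists were chosen with earlier results of these data known. Named from each list were the 2 largest called changes at 1 CPM or more in each comparison, and the 3 genes most like each member. Other list genes were named after their values were seen. Same-letter deviations correlated in COV362 (0.41, 0.42 and 0.13 for A, B and C) and between the DMSO groups (0.35, 0.16 and 0.15). The letters are therefore treated as possible pairs there, from the data and not from the labels. For C the highest correlation with another letter was no lower, at 0.14 in COV362 and 0.24 between the DMSO groups. The fit reported has no block, and results with the block are given as an alternative. In PEO1 the same-letter correlations were 0.30, 0.17 and 0.08 for A, B and C, under the limit of 0.1 for C. The highest correlations with another letter there were −0.10, 0.22 and −0.02. A letter effect in PEO1 was therefore not shown to be absent. DUSP4 and DUSP5 have no promoter window here, and no protein sequences were used.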

Additional observations from a re-analysis of the deposited data

Results flagged for a closer look

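For 4 MAPK feedback genes the change with prexasertib differed between PEO1 and COV362 in a test of the difference itself (edgeR QL, BH-adjusted over all tested genes). The difference of the log2 fold changes, PEO1 minus COV362, was 1.95 for DUSP10, 1.38 for DUSP1, 1.05 for DUSP6 and 1.03 for SPRY4, with BH-adjusted p of 0.00168, 0.00819, 0.0445 and 0.00909 in edgeR QL. Of all tested genes, 6.1% differed by the same rule. The call held in 21 of 21 alternatives for DUSP10, in 20 of 21 for DUSP1 and for SPRY4, and in 8 of 21 for DUSP6. That of DUSP6 was lost with upper-quartile factors and without the low-count filter (edgeR QL, BH-adjusted p = 0.0548 and 0.0506), and without any 1 of 10 libraries. In PEO1 each of the 4 had all 3 prexasertib libraries above all 3 DMSO libraries, so any pairing of libraries there gives 3 of 3. The same holds for DUSP1 in COV362. Of the others in COV362, DUSP6 was higher in 3 of 3 same-letter pairs, SPRY4 in 2 of 3 and DUSP10 in 1 of 3. No cause of the differences was tested.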

How the results depend on the processing

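Of the 10 members in COV362, 2 were called with the replicate block and 2 with the block and the exon length correction, 0 in a fit of that line alone, 0 against a 1.5-fold minimum, and 0 to 1 without any 1 library. All genes called in COV362, 120 in the fit reported, came to 499 in DESeq2, 1399 with the replicate block, 245 with the length correction, 1495 with both, 330 without the A libraries, 10 in the line alone, 16 at the 1.5-fold minimum and 27 to 128 without any 1 library. In PEO1, 4 members were called at the 1.5-fold minimum and 4 to 8 without any 1 library; all genes called, 4249 in the fit reported, came to 6926 with the block, 7230 with block and length correction, 1087 at the 1.5-fold minimum and 3011 to 5053 without any 1 library. For the difference, 1 member was called at the 1.5-fold minimum (DUSP10) and 3 to 4 without any 1 library; all genes called, 885 in the fit reported, came to 1840 in DESeq2, 4219 with the block, 1598 with the length correction, 4453 with both, 83 at the 1.5-fold minimum and 328 to 1756 without any 1 library. Between the DMSO groups, 4 members and 5258 genes were called at the 1.5-fold minimum, 10 members with block and length correction, 9 with upper-quartile factors, 8 each with the block, the length correction, DESeq2 or no A libraries, and 7 members and 7513 to 8901 genes without any 1 library (without COV362 DMSO C, SPRED2 took the place of DUSP1). The PEO1 letters were not taken as pairs; the block added DUSP8 there (BH-adjusted p = 0.0397, edgeR QL) and DUSP4 to the difference (BH-adjusted p = 0.0387, edgeR QL), and it ended no member's call in any of the 4 comparisons. In the lists the block called 5 ERK output genes higher and 4 lower, 4 RAS-ERK genes higher and 5 lower and 2 JNK and p38 genes higher and 9 lower in PEO1, and for the difference 1 and 4, 5 and 3, and 4 and 7.

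Among the 10 members and the called list genes, signs turned for these changes near 0, none of them called. SPRED1 in PEO1 was −0.02 without the filter, with the length correction and with both corrections, and −0.07 to 0.04 without any 1 library (−0.01 and −0.03 without DMSO A and B, −0.07 without prexasertib B). The DUSP8 difference was −0.10 with the length correction, −0.12 with block and length correction, −0.02 without the A libraries, −0.06 without COV362 DMSO C, and −0.18 without COV362 prexasertib A, with 0.51 the highest without any 1 library. The DUSP5 difference was −0.01 in DESeq2, −0.04 in limma-voom, −0.03 with upper-quartile factors, −0.04 without the filter, −0.01 with the block, −0.18 without the A libraries and −0.22 to 0.23 without any 1 library. In COV362, DUSP4 ranged from −0.04 to 0.04 and SPRED2 from −0.04 to 0.14 without any 1 library. Upper-quartile factors moved the median of all genes between the DMSO groups to −0.11. The causes were not tested. With 3 libraries a group, a gene that did not pass was not shown to be unchanged. The smallest difference that these data could detect was not tested.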
